A study of Mus musculus with 22 samples.

Results

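The genes described here are the ephrin, Slit and netrin guidance families: Eph receptors and ephrins, Slits and Robos, netrins and netrin-G proteins, Dcc and neogenin, Unc5 receptors, and the repulsive guidance molecules (Rgm). Membership was set by gene symbol, which gave 41 of the 37786 genes in the count table. A gene was tested when 10 or more mice had 10 or more counts of it, which held for 17524 genes, 40 of the members among them and Epha1 not.

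The values came from bulk RNA sequencing of the anterior cingulate cortex (ACC), asking which transcripts differ after repeated activation of its input from the basolateral amygdala (BLA). All mice were wild-type male C57BL/6J, 8 weeks old when the procedures began, and all carried AAV5-CaMKIIa-ChR2(H134R)-EYFP, a light-gated channel under a promoter used for excitatory neurons, on both sides of the BLA and an optic fiber in the ACC of a single side. In the stimulated group (stim, n = 10) light was delivered in 9 sessions, and in controls (ctrl, n = 12) every step was the same with the light off. Both sides of the ACC were dissected 48 hours after the last session, so each library held tissue from the side without a fiber too.

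These families are the classical contact and diffusible cues of axon guidance. Ephrin-A ligands are anchored to the membrane by a lipid and ephrin-B ligands span it, so both signal between touching cells, through Eph receptor tyrosine kinases and back into the cell that carries the ephrin. Slits are secreted repellents read by the receptors Robo1 and Robo2, whereas mammalian Robo3 binds them poorly. Secreted netrins attract axons through Dcc and repel them through Unc5 receptors, and neogenin also binds Rgm proteins, which act as co-receptors of bone morphogenetic proteins (BMPs) as well. In the adult cortex members of these families are found at synapses, on glia and on blood vessels.

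The libraries held 23090483 to 43668462 counts, medians 31797782 in controls and 32917051 in stimulated mice. Labels number them from 1 to 23 without a library 7. Numbers 1 to 11 (run 1, 6 controls and 4 stimulated mice) and 12 to 23 (run 2, 6 and 6) differed at an adjusted p under 0.05 in 68.1% of genes, so the run was a covariate of every comparison unless stated otherwise. The labels do not say what a run is, and the batch of each mouse was not used here. Mitochondrial genes took 1.63% to 4.81% of counts in run 1 and 0.982% to 1.90% in run 2. Markers of excitatory cortical neurons were detected in every mouse (11 genes, summed 3407 to 8074 counts per 1000000 of the library, CPM). Controls 9 and 11, both in run 2, stood apart with summed CPM of 15 oligodendrocyte markers of 20617 and 15190, against at most 6701 in any other mouse.

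Of the 41 guidance genes, 32 averaged at least 1 RPKM in the adult ACC, that is, CPM divided by exon length in kilobases. Of these, 6 averaged at least 10 RPKM, while 9 genes averaged under 1. These counts are of means over both runs, and some members crossed a limit between runs. Ephb4 averaged 0.898 RPKM in run 1 and 2.70 in run 2, Epha3 0.583 and 1.11, and Neo1 4.50 and 11.7. Receptors led, with Ephb6 far above the rest, followed by Unc5a and Epha4. After stimulation no member differed from controls at an adjusted p under 0.05. The lowest unadjusted p-values were those of Efna3 and Ephb6, which were slightly higher in stimulated mice, and of Neo1, Robo3 and Epha7, which were lower. The runs of libraries, in contrast, separated nearly every member, with ephrin-A ligands on the other side from the receptors.

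**Figure D1:**
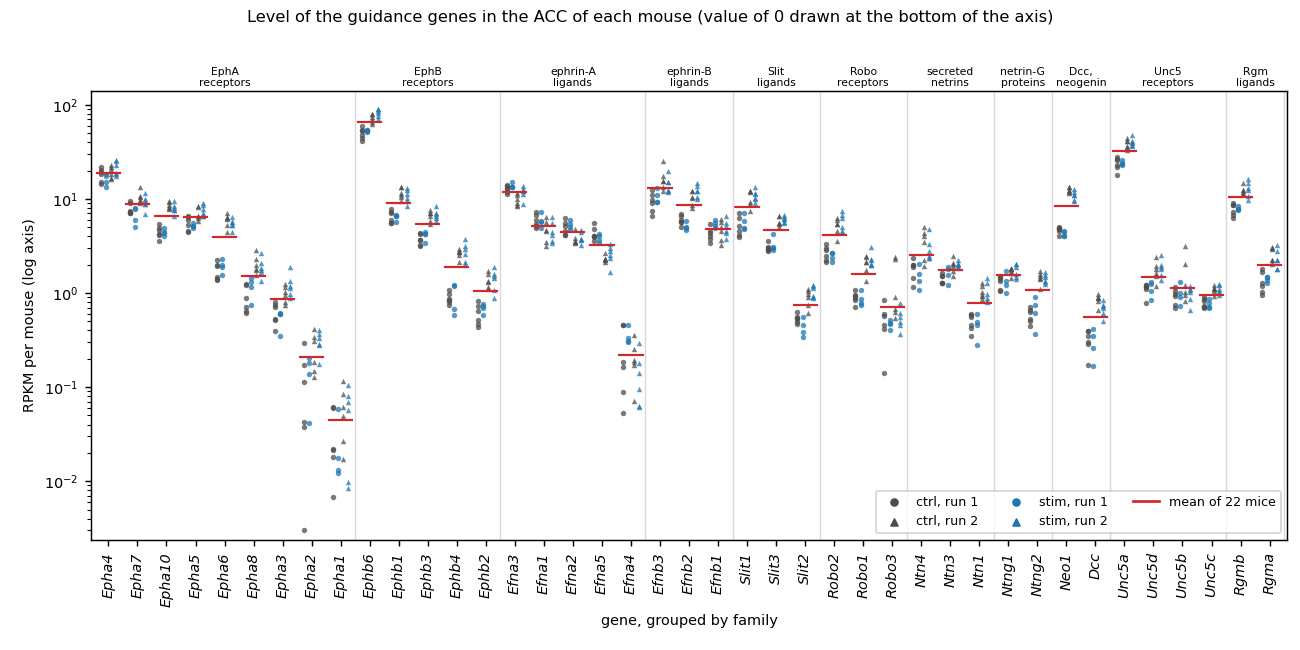
Level of each of the 41 genes in RPKM (vertical log axis) in each of 22 mice, grouped by family (horizontal axis); circles are run 1, triangles run 2, grey controls, blue stimulated mice, and red lines the means over all mice. Ephb6 (mean 65.4 RPKM) and Unc5a (32.3) sit above all others, Epha1 (0.0444) is the lowest, and the triangles lie above the circles for most genes but not for ephrin-A ligands.

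Levels between genes are compared per length of merged exons, as mean ± SD over 22 mice, and the SD includes the difference between runs. Among the EphB receptors, Ephb6, which lacks kinase activity, reached 65.4 ± 15.4 RPKM, ranging from 41.3 to 91.0, or 24.5% of the RPKM summed over the 41 genes. The other EphB receptors followed at 9.06 ± 2.75 (Ephb1), 5.42 ± 1.60 (Ephb3), 1.88 ± 0.992 (Ephb4, the partner of Efnb2 in blood vessels) and 1.04 ± 0.445 RPKM (Ephb2). Of the EphA receptors Epha4, which binds ephrins of both classes, was highest at 19.0 ± 3.39 RPKM. Epha7 stood at 8.77 ± 1.93, Epha10, another receptor without kinase activity, at 6.51 ± 2.05, Epha5 at 6.43 ± 1.33 and Epha6 at 3.93 ± 2.07 RPKM. Epha8 averaged 1.52 ± 0.616 RPKM and Epha3 0.871 ± 0.362. Epha2, better known from epithelia, averaged 0.209 ± 0.124 RPKM and had no count in control 2, a depth at which up to 0.105 CPM would go unseen (3 counts). Epha1 had 1 to 13 counts per mouse and averaged 0.0444 ± 0.0332 RPKM.

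Every ephrin was detected. Efna3 was the highest ephrin-A at 11.9 ± 1.93 RPKM, before Efna1 at 5.20 ± 1.21, Efna2 at 4.40 ± 0.861 and Efna5 at 3.22 ± 0.986. Efna4 was near the limit of detection at 0.222 ± 0.133 RPKM (3 to 28 counts). The transmembrane ligands were led by Efnb3 at 12.9 ± 4.23, before Efnb2 at 8.68 ± 3.23 and Efnb1, which lies on the X chromosome, at 4.78 ± 0.923 RPKM.

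Among the Slits, Slit1 was highest at 8.20 ± 3.03 RPKM, with Slit3 at 4.67 ± 1.50 and Slit2 at 0.752 ± 0.279. The Robo genes stood at 4.14 ± 1.69 (Robo2), 1.58 ± 0.721 (Robo1) and, for Robo3, known from the crossing of commissural axons, at 0.711 ± 0.561 RPKM. Secreted netrins were low: Ntn4, a netrin of basement membranes, averaged 2.55 ± 1.15, Ntn3 1.76 ± 0.338 and Ntn1 0.781 ± 0.328 RPKM. The lipid-anchored netrin-G proteins of axon terminals stood at 1.53 ± 0.299 (Ntng1) and 1.07 ± 0.457 (Ntng2).

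The netrin receptors were unequal. Unc5a reached 32.3 ± 8.68 RPKM, while Unc5d averaged 1.49 ± 0.466, Unc5b 1.12 ± 0.530 and Unc5c 0.947 ± 0.183. Neo1, the receptor shared by netrins and Rgm proteins, was at 8.40 ± 3.76 and Dcc at 0.562 ± 0.265 RPKM. Of the Rgm genes, Rgmb was at 10.4 ± 2.85 and Rgma at 1.96 ± 0.702. Ephb6 exceeded Unc5a and Unc5a exceeded Epha4 in 22 of 22 mice, although the ranges over mice overlapped for all 40 neighbors in the order of means. Below Epha4 many neighbors were not ordered over all mice: Efnb3 exceeded Efna3 in 11 of 22 mice and Neo1 exceeded Slit1 in 9. For both pairs the order of the means turned with the run. Efnb3 and Efna3 averaged 9.87 and 13.2 RPKM in run 1 and 15.5 and 10.8 in run 2. Neo1 and Slit1 averaged 4.50 and 5.36 RPKM in run 1 and 11.7 and 10.6 in run 2. With the longest transcript as length, 35 members were at or above 1 RPKM.

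Genes of these families were next compared between stimulated mice and controls (edgeR quasi-likelihood test with the run as covariate, Benjamini-Hochberg adjustment over 17524 genes). No member had an adjusted p under 0.05 (0 of 40, background 0%), and the smallest adjusted p was 0.349. At an unadjusted p under 0.05 there were 5 of 40 members (12.5%), beside 11.5% of all genes tested. Of these, 2 were higher (6.05% of all genes) and 3 were lower (5.45% of all genes). Over the members the median log2 fold change was 0.02, with 25 above 0 and 15 below, and over all genes it was 0.01. The members' standard errors ran from 0.056 to 0.380 (median 0.108). The 95% interval lay within 0.5 of 0 on the log2 scale for 34 of 40 members, the others being Epha2, Efna4, Robo3, Ntn4, Dcc and Unc5b, and within 1 for 38, all but Epha2 and Robo3. Since this was bulk tissue, fewer cells of a type and less RNA per cell cannot be told apart.

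**Figure D2:**
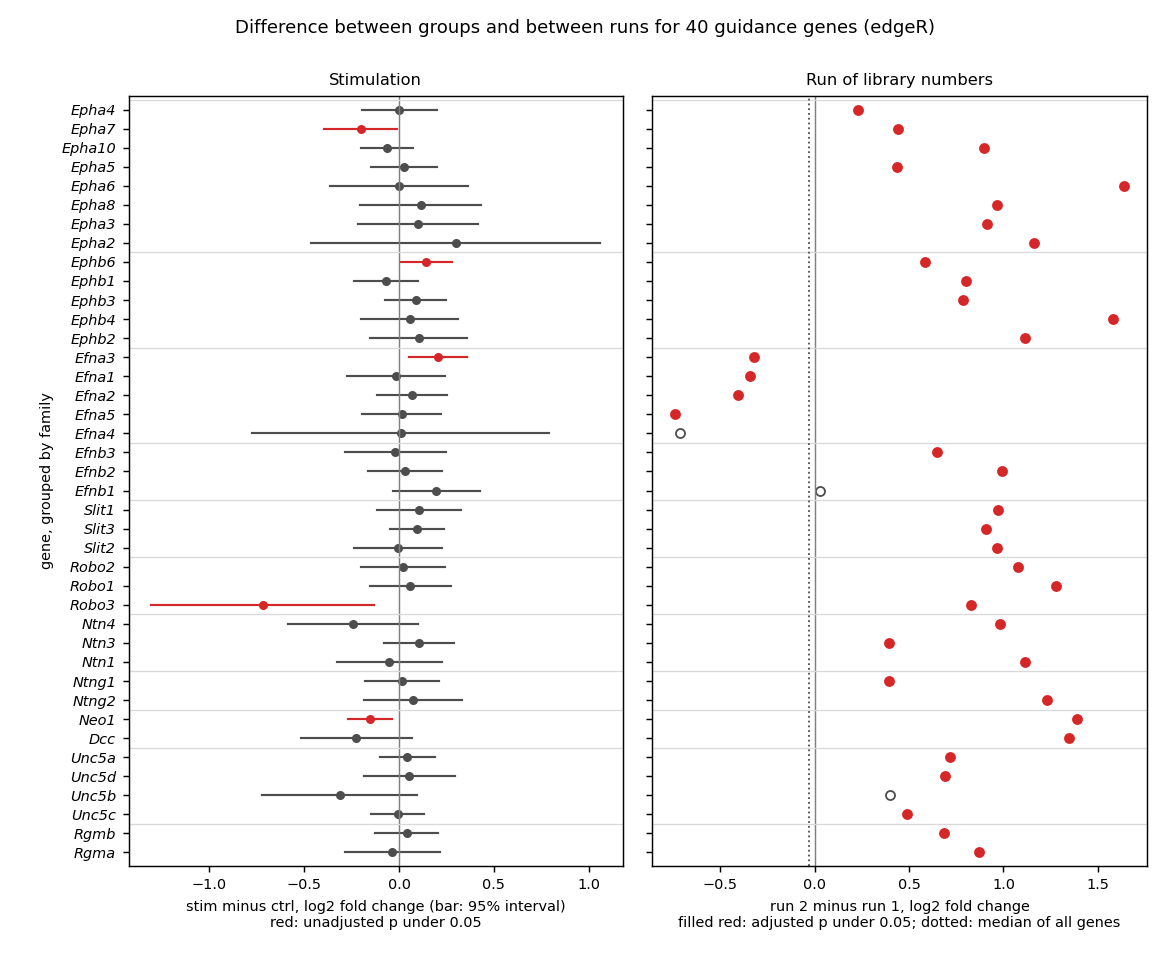
Log2 fold change of the 40 tested members, by family (vertical axis). Left, stim minus ctrl with 95% intervals (bars), red where the unadjusted p was under 0.05, which holds for Efna3 and Ephb6 above 0 and Robo3, Neo1 and Epha7 below. Right, run 2 minus run 1, filled red where the adjusted p was under 0.05 (37 genes), with the median of all genes (-0.03) dotted; all 5 ephrin-A ligands lie below 0.

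Of the ephrins, Efna3 had the smallest p. In run 1 its controls ranged from 27.6 to 34.4 CPM (median 31.4) and the 4 stimulated mice were at 32.3, 32.8, 32.9 and 36.5. In run 2, controls ranged from 20.5 to 27.9 CPM (median 23.0) and stimulated mice from 21.6 to 33.7 (median 29.3). The groups overlapped in both runs, with 4 of 6 stimulated mice above every control in run 2. The log2 fold change was 0.20 ± 0.073 (SE; unadjusted p = 0.0102, adjusted p = 0.349, edgeR). Controls 9 and 11 had the lowest 2 values of run 2, and without them the log2 fold change was 0.14 (unadjusted p = 0.0617, edgeR). With the log2 level of the oligodendrocyte markers as a further covariate it was 0.11 (unadjusted p = 0.117, edgeR). Efna3 shares 344 of its 2434 exon bases with the antisense gene Gm15998, and the library kit does not mark strand, so its counts and those of Gm15998 cannot be fully told apart. The other ephrin-A ligands ranged in log2 fold change from -0.01 (Efna1) to 0.07 (Efna2). Efnb1 had 0.20 ± 0.11 (SE; interval -0.03 to 0.43), Efnb2 0.03 and Efnb3 -0.02.

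Ephb6 was higher in stimulated mice by 0.14 ± 0.066 (SE) on the log2 scale (unadjusted p = 0.0383, adjusted p = 0.412, edgeR). Its controls ranged from 156 to 222 CPM (median 187) in run 1 and from 238 to 302 (median 276) in run 2. The stimulated mice were at 195, 200, 202 and 202 CPM in run 1, inside the range of the controls, and from 263 to 344 (median 315) in run 2, where 4 of 6 exceeded every control. Controls 9 and 11 were again the lowest 2 of their run, and without them the log2 fold change was 0.09 (unadjusted p = 0.204, edgeR), and with the oligodendrocyte covariate it was 0.05 (unadjusted p = 0.366, edgeR). The remaining EphB receptors lay between -0.07 (Ephb1) and 0.10 (Ephb2).

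Epha7 was lower by a log2 fold change of -0.20 ± 0.094 (SE; unadjusted p = 0.0410, adjusted p = 0.415, edgeR). Controls ranged from 69.1 to 94.7 CPM (median 72.5) in run 1, where the stimulated mice were at 49.5, 58.4, 77.8 and 78.8. In run 2, controls ranged from 89.7 to 132 CPM (median 101) and stimulated mice from 68.2 to 115 (median 91.7). The groups overlapped in both runs, with 2 of 4 and 3 of 6 stimulated mice below every control. Without controls 9 and 11 the log2 fold change was -0.23 (unadjusted p = 0.0333, edgeR), and by limma voom with all mice it was -0.17 (unadjusted p = 0.0701). Epha4, the most abundant EphA receptor, had a log2 fold change of 0.00 with a 95% interval from -0.20 to 0.20. The widest interval of a receptor was that of Epha2, from -0.46 to 1.06, at 0 to 70 counts per mouse.

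Among the netrin and Rgm receptors, Neo1 was lower by a log2 fold change of -0.15 ± 0.056 (SE; unadjusted p = 0.0115, adjusted p = 0.349, edgeR). Its controls ranged from 34.7 to 43.9 CPM (median 41.5) in run 1 and from 99.9 to 116 (median 106) in run 2. The stimulated mice of run 1 were at 34.9, 35.3, 38.7 and 39.3 CPM, and those of run 2 ranged from 83.3 to 112 (median 95.1). No stimulated mouse lay outside the controls of run 1, and 4 of 6 were below every control in run 2. With group as the only term its log2 fold change was -0.04 (unadjusted p = 0.896, edgeR), and in run 1 alone it was -0.12 (unadjusted p = 0.196, edgeR). Neo1 was the least variable member once group and run were fitted, with a residual SD of 0.123 on the log2 scale. Dcc, the related netrin receptor, had a log2 fold change of -0.22 (interval -0.51 to 0.07). Unc5b had -0.31 (interval -0.72 to 0.10), the largest in size after Robo3. The other Unc5 receptors lay between -0.01 (Unc5c) and 0.05 (Unc5d), and the ligands Rgma and Rgmb at -0.03 and 0.04. Of the netrins themselves, Ntn4 had -0.24 (interval -0.58 to 0.10), Ntn1 -0.05 and Ntn3 0.11, and the netrin-G genes 0.02 (Ntng1) and 0.07 (Ntng2).

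Robo3 had the largest fold change, and it rested on 2 controls. In run 1 the controls ranged from 0.971 to 5.74 CPM (median 3.51) and the stimulated mice were at 2.74, 3.18, 3.28 and 3.51. In run 2 the controls were at 3.70, 4.34, 4.57, 6.20, 15.7 and 16.7 CPM and the stimulated mice ranged from 2.50 to 5.42 (median 3.60). The 2 highest values were those of controls 11 and 9, and every other mouse of either run had at most 6.20 CPM. The log2 fold change was -0.72 ± 0.29 (SE; unadjusted p = 0.0184, adjusted p = 0.363, edgeR), and it was -0.24 (unadjusted p = 0.261) without these controls. With the oligodendrocyte covariate it was -0.06 (unadjusted p = 0.759, edgeR), and by limma voom -0.39 (unadjusted p = 0.149). Robo1 and Robo2 had log2 fold changes of 0.06 and 0.02, and the Slits of 0.10 (Slit1), -0.01 (Slit2) and 0.09 (Slit3).

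**Figure D3:**
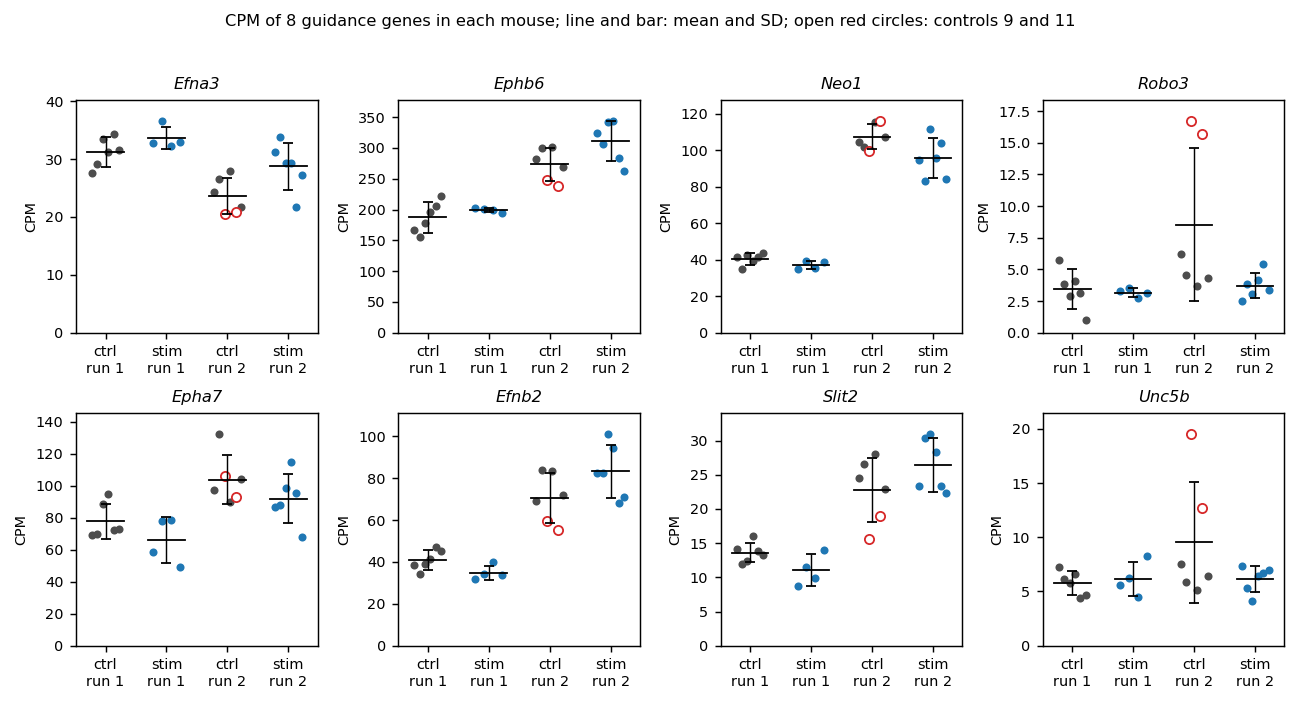
CPM (vertical axes, from 0) of Efna3, Ephb6, Neo1, Robo3, Epha7, Efnb2, Slit2 and Unc5b in each mouse by group and run; horizontal lines and bars are mean and SD, open red circles controls 9 and 11. In Robo3 and Unc5b these controls are the 2 highest of all mice, and in Efna3, Ephb6, Efnb2 and Slit2 the 2 lowest of run 2.

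Oligodendrocyte markers are given beside these values. All 15 oligodendrocyte markers were lower in stimulated mice, 13 of them at an unadjusted p under 0.05 and 0 at an adjusted p, and none was at 0 in any mouse. The difference of the group effect between runs had an unadjusted p under 0.05 for 14 of the 15 (beside 8.01% of all genes) and an adjusted p under 0.05 for 0, with a median of -1.17, so the markers lay further below controls in run 2. Their summed CPM ranged from 3512 to 6701 (median 4956) in controls and 3716 to 6127 (median 4544) in stimulated mice of run 1, and from 3936 to 20617 (median 5548) and 2742 to 4923 (median 4055) in run 2, the run of controls 9 and 11. Controls 9 and 11 were the highest 2 mice of run 2 for 3 of 40 members (5.18% of all genes), Ephb1, Robo3 and Unc5b, and the lowest 2 for 8 (5.32% of all genes), Epha4, Epha5, Ephb6, Efna3, Efnb2, Slit1, Slit2 and Robo1. Unc5b, which is also known from blood vessels, was at 19.5 and 12.7 CPM in them and at most 8.24 in every other mouse. Without both controls, 2 of 40 members (Epha7 and Neo1, both lower) had an unadjusted p under 0.05, beside 7.73% of all genes, 4.45% lower. With the oligodendrocyte marker level as a covariate there were 6 of 40, all lower (Efnb2, Epha4, Epha7, Neo1, Robo2 and Slit2), beside 7.73% of all genes, 3.7% lower. Of 7 choroid plexus and ependyma markers, 4 were tested and 3 were lower at an unadjusted p under 0.05. Their summed CPM was 4.72 to 136 in controls and 6.18 to 18.1 in stimulated mice, with Folr1, Ccdc153 and Tmem212 at 0 in some mice, and their part in the members' values was not tested. Of the neuronal lists, at an unadjusted p under 0.05 (edgeR) and beside 11.5% of all genes, 3 of 8 inhibitory markers were higher (Slc32a1, Sst and Npy). Of 11 excitatory markers, 2 were higher (Slc17a7 and Neurod2) and 1 lower (Rorb). Of 6 genes listed as septal and thalamic, 2 were lower (Prox1 and Tcf7l2), and the highest sum of that list, 66.8 CPM, was in control 9. None of the 8 striatal markers passed, and all 8 had log2 fold changes above 0. All 6 markers of oligodendrocyte progenitors lay below 0, with 1 (Olig2) at an unadjusted p under 0.05 (edgeR). All 10 astrocyte markers had log2 fold changes below 0, with 0 at an unadjusted p under 0.05 (edgeR) and a summed CPM of 3057 to 6302 in controls and 2998 to 5723 in stimulated mice. The part of these lists was not tested either.

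**Figure D4:**
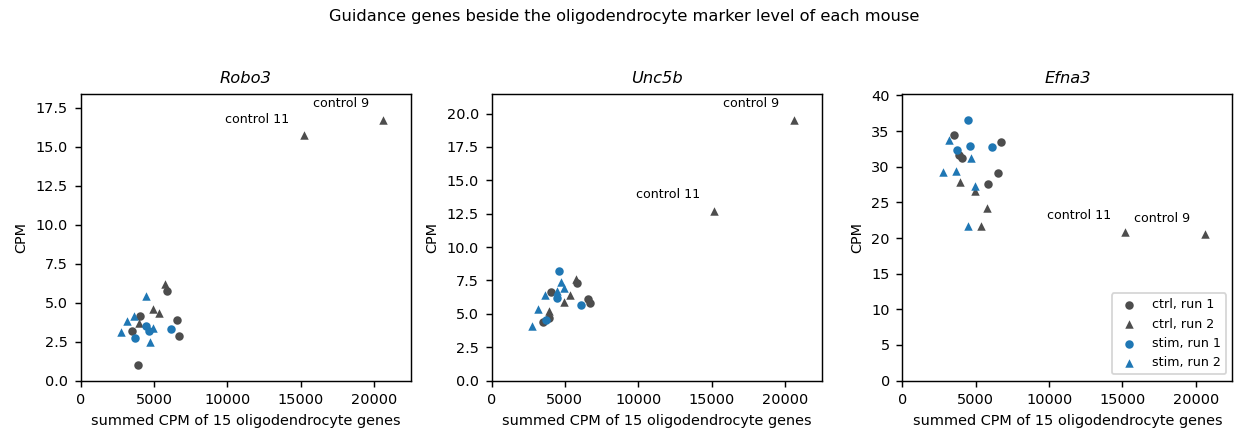
CPM of Robo3, Unc5b and Efna3 (vertical axes) against the summed CPM of 15 oligodendrocyte markers (horizontal axis) in each of 22 mice; circles run 1, triangles run 2, grey controls, blue stimulated mice. Controls 9 and 11, at 20617 and 15190, are the only mice above 6701, with the highest values of Robo3 and Unc5b and the lowest of Efna3.

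Within run 1 alone, 1 member (Efnb1, log2 fold change 0.35) had an unadjusted p under 0.05, beside 5.56% of all genes, and within run 2 there were 5 (Efna3 0.25, Dcc -0.36, Neo1 -0.20, Robo3 -1.24 and Unc5b -0.67), beside 12.4%. Efna3, Ephb6, Epha7, Neo1 and Robo3 each had the same sign in both runs, although Robo3 was at -0.10 in run 1. Unc5b had opposite signs, at 0.10 in run 1. Without the run as a covariate, 1 member (Robo3) had an unadjusted p under 0.05, beside 3.61% of all genes. The difference of the group effect between runs had an unadjusted p under 0.05 for 2 of 40 members (5%), Efnb2 and Slit2, beside 8.01% of all genes, and an adjusted p under 0.05 for none.

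Efnb2, a ligand of EphB receptors and Epha4, was at 34.1 to 47.2 CPM (median 40.2) in the controls of run 1 and at 32.0, 33.6, 34.2 and 39.8 in its stimulated mice. In run 2 it was at 55.4 to 83.8 CPM (median 70.6) in controls and 68.2 to 101 (median 82.5) in stimulated mice. The groups overlapped in both runs, and neither log2 fold change, -0.22 in run 1 and 0.20 in run 2, passed within its run (unadjusted p = 0.0558 and 0.106, edgeR), while their difference was 0.47 ± 0.17 (SE; unadjusted p = 0.0101, adjusted p = 0.558, edgeR interaction term). Slit2 was at -0.28 and 0.18 (unadjusted p = 0.0655 and 0.202, edgeR), again with overlap in both runs, and a difference of 0.52 ± 0.20 (SE; unadjusted p = 0.0183, adjusted p = 0.575, edgeR). Its controls ranged from 12.0 to 16.0 CPM in run 1 and from 15.6 to 28.0 in run 2, and its stimulated mice were at 8.68, 9.90, 11.5 and 14.1 in run 1 and from 22.3 to 31.0 in run 2. Controls 9 and 11 were the lowest 2 of run 2 for both genes, and without them the differences were 0.30 and 0.31 (unadjusted p = 0.0707 and 0.103, edgeR).

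The run of libraries split the families far more than stimulation did. At an adjusted p under 0.05 (edgeR), 37 of 40 members differed between runs, beside 68.1% of all genes. Of these, 33 were higher in run 2 (33.7% of all genes) and 4 were lower (34.3% of all genes). Relative to run 1 the median of the members was 0.82 on the log2 scale, against -0.03 over all genes. The 4 lower genes were all ephrin-A ligands, Efna1 (-0.34), Efna2 (-0.40), Efna3 (-0.32) and Efna5 (-0.74). Efna4 was at -0.72 (adjusted p = 0.0734), so all 5 lay below 0, and the 35 other members lay above it, with Efnb1 (0.03) and Unc5b (0.40) short of the threshold.

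Epha6 differed most, with 7.30 to 12.1 CPM in run 1 and 23.4 to 37.0 in run 2 (log2 difference 1.64). Ephb4 had 2.72 to 5.68 and 9.42 to 17.2 CPM (1.58), and Neo1 34.7 to 43.9 and 83.3 to 116 CPM (1.39), so that for all 3 genes the runs did not overlap. Efna5 ran the other way, from 13.7 to 22.2 CPM in run 1 to between 6.72 and 13.4 in run 2, again without overlap. Efna2 ranged from 8.71 to 13.2 CPM in run 1 and from 6.91 to 10.2 in run 2, which overlapped.

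Marker levels of some cell types split by run as well. The 6 markers of oligodendrocyte progenitors summed to 184 to 236 CPM in run 1 and 273 to 503 in run 2, without overlap. The highest sums, 503 and 496 CPM, were those of controls 11 and 9. At an adjusted p under 0.05 (edgeR), 5 of the 6 were higher in run 2, but not Olig1, the most abundant of them (adjusted p = 0.205). Excitatory neuron markers summed to 3407 to 4137 and 5018 to 8074 CPM, but Slc17a7 and Camk2a made up most of that sum and the list was mixed, with 6 of 11 higher in run 2 and 3 lower (Neurod2, Nrgn and Fezf2) at an adjusted p under 0.05 (edgeR). Their part in the members' run difference was not tested.

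The run difference also varied with the length of the transcript. Across all 17516 tested genes with a length it correlated with log2 merged exon length at a Pearson r of 0.60 (Spearman rank correlation 0.62), and across the 40 members at 0.50 (rank correlation 0.33), a description over genes that share libraries. With the genes divided by length into 3 groups of equal size, the median difference was -0.54 in the shortest (up to 2886 bases), 0.05 in the middle group and 0.44 in the longest (from 5407 bases). The shortest group held 4 members, Efna1, Efna2, Efna3 and Efna4, with a median of -0.37. The middle group held 12 members with a median of 0.84, of which 11 were above 0 and Efna5 (4032 bases) was below. All 24 members in the longest group were above 0, with a median of 0.88. Pearson correlation of the run difference with GC content was 0.01 over all genes and -0.01 over members. For the difference between stimulated mice and controls it was 0.24 over all genes and 0.12 over members (rank correlations 0.26 and 0.26). The part of GC content in that difference was not tested. What differed in the handling of the runs was not tested.

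**Figure D5:**
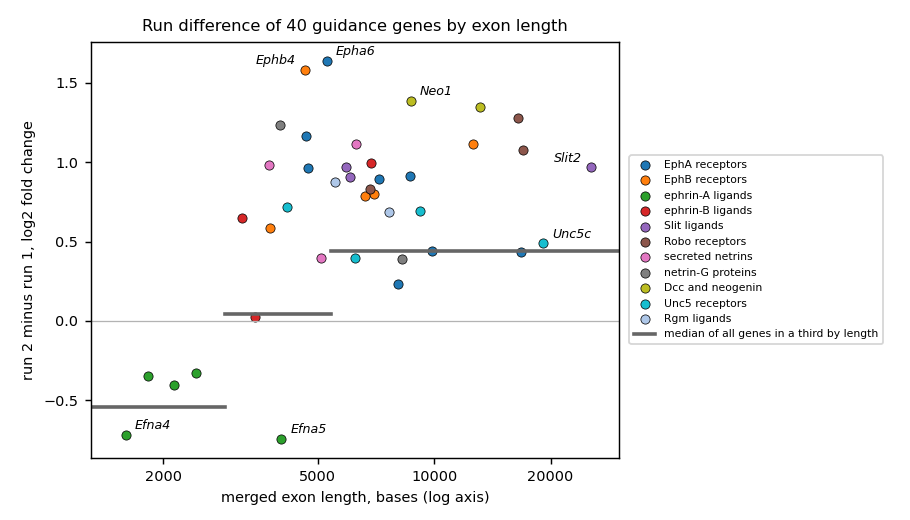
Run 2 minus run 1 in log2 fold change (vertical axis) of 40 members against merged exon length in bases (horizontal log axis), colored by family; grey lines are the medians of all genes in 3 equal groups by length (-0.54, 0.05 and 0.44). All ephrin-A ligands lie below 0, and all but the longer Efna5 are in the shortest group, while most other members lie above the line of their group.

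Other genes of these pathways were taken from lists of cytoplasmic effectors, co-receptors and partners, and family members outside the symbols used. From these lists 70 genes were tested, and 11 (15.7%) had an unadjusted p under 0.05 for stimulation, 7 higher and 4 lower, beside 11.5% of all genes, with 0 at an adjusted p under 0.05. Their median log2 fold change was 0.04. By list these were 5 of 43 effectors (11.6%), 5 of 24 co-receptors and partners (20.8%), and 1 of 3 further family members. Bmp2, a BMP ligand that Rgm proteins bind, had the smallest p, at 5.01 ± 1.02 CPM in the 12 controls and 6.65 ± 1.24 CPM in the 10 stimulated mice (mean ± SD; log2 fold change 0.40, unadjusted p = 0.00358, adjusted p = 0.329, edgeR).

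The netrin-G ligand family members Lrrc4b and Lrrc4, adhesion proteins of the postsynaptic side, had log2 fold changes of 0.16 and 0.14. Cfl1, the actin-severing protein cofilin, and Ngef, an exchange factor that binds Eph receptors, were both at 0.19. Hfe2, which encodes the third Rgm protein, was at 0.38 with a mean of 1.22 CPM in controls. The lower genes were Cbln4, a secreted cerebellin, at -0.37, Dock1, an activator of Rac that acts downstream of Dcc, at -0.28, Bmpr1a, a type I BMP receptor, at -0.17, and the tyrosine kinase Abl1 at -0.13. Adjusted p-values of these 9 genes were 0.349 or more. Between runs, 55 of the 70 had an adjusted p under 0.05, 46 higher and 9 lower in run 2, beside 68.1% of all genes (33.7% higher and 34.3% lower), with a median of 0.37.

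Several members lie next to each other in the genome (GRCm38, GENCODE M21). Efna1, Efna3 and Efna4 are neighbors on the minus strand of chromosome 3, with 32756 bases between Efna1 and Efna3 and 10424 between Efna3 and Efna4, while their levels were 5.20, 11.9 and 0.222 RPKM. Epha8 and Ephb2 lie 93430 bases apart on chromosome 4. Robo1 and Robo2 lie 845743 bases apart on chromosome 16, and Epha1 and Ephb6, the lowest and the highest member, 737977 bases apart on chromosome 6. Of the 41 members, 12 share exon bases with another gene, and besides Efna3 the share was above 10% for Efna4 (10.5%, antisense) and Ntng2 (14.0%, a transcript on the same strand). Neo1, Robo3, Ephb6, Epha7, Efnb2 and Slit2 share none.

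Promoter windows of 250 bases before the transcription start (RefSeq, GRCm38.p6) matched 35 of the 41 members, and Efnb3, Slit1, Ntn1, Dcc, Unc5d and Rgma had none. The RefSeq start lay within 100 bases of the GENCODE gene start for 26 of the 35 and more than 500 bases from it for 4, Robo1 (354843 bases), Ntng2 (4906), Epha10 (886) and Ntng1 (539), so these windows are not those of the gene starts used elsewhere. Median GC content was 65.6% in the members and 52.4% in all 32851 windows, and the median number of CG dinucleotides 19 and 6. Each member had a single window, the nearest to its GENCODE gene start, while all windows include several for some genes. The sets were therefore not chosen alike. Motifs of factors induced by neuronal activity were searched on both strands, as letters only. The cAMP response element TGACGTCA was in Epha2 (1 of 35; 1.55% of all windows), the AP-1 motif TGAGTCA in none (4.46%), and the EGR1 motif GCGTGGGCG in Efna3 (1 of 35; 0.536%). The 2 members with the smallest p-values for stimulation are shown, in lower case and 5′ to 3′, with capitals marking the EGR1 letters on the reverse strand of Efna3 (chr3:89322966-89323189, minus strand, 18 CG dinucleotides, without the 26 bases inside the annotated gene) and none in Neo1 (chr9:59036442-59036691, minus strand, 45 CG dinucleotides).
Efna3: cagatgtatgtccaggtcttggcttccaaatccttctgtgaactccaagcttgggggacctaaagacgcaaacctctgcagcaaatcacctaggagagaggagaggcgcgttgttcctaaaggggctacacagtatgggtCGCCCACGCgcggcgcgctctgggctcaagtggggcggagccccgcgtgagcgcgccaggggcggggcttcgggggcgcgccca
Neo1: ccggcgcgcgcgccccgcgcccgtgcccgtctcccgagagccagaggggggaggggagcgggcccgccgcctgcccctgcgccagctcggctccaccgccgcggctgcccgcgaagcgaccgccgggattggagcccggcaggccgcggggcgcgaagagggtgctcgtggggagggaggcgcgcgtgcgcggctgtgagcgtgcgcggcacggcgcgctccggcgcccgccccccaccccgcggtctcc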

How the data were processed

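RNA of 22 mice was amplified as full-length cDNA from 5 ng and sequenced in single-end reads. Per the labels and methods, the authors used cutadapt 1.10 for trimming, STAR 2.5.3a for alignment (mm10) and HTSeq 0.6.1p1 for counts of uniquely aligned reads on Ensembl genes. The strand setting is not given in the sources used here. The deposited raw counts were used. The authors' size-factor-normalized values and the log2 fold changes and p-values of their DESeq2 1.22.1 comparison were not used, and there were 0 other per-sample columns.

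Counts were analyzed with edgeR 4.0.16 in R 4.3.3 (TMM, glmQLFit, glmQLFTest) with terms for group and run of library numbers, on the 17524 genes that reached 10 counts in 10 or more mice, which were also the genes of the Benjamini-Hochberg adjustment. The run stands in for the batch used by the study, since batch and RNA integrity of each mouse were not used here. Standard errors are the absolute log2 fold change over the square root of F, and the 95% intervals use them. This ratio is less reliable where the log2 fold change is near 0. For Epha6, at -3.94e-05, it was 0.177, beside 0.102 for the run difference in the same fit. CPM and RPKM use TMM library sizes and merged exons of GENCODE M21 (GRCm38), in which all 41 members matched. Counting error aside, amplified reads are not independent molecules.

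Groups and replicate numbers came from the labels. The members and gene lists were chosen with earlier results of these data known. Given in full are members with an unadjusted p under 0.05 for group or for the interaction of group and run, then the 3 highest and 3 lowest run differences, the level of every member, and the 10 pathway genes with the smallest p. Alternatives were group alone, a surrogate variable (sva 3.50.0), an oligodendrocyte covariate, a replicate block, DESeq2 size factors, limma 3.58.1 voom, the Wald test of DESeq2 1.42.0, other count minimums, each run alone and leaving out mice. Over 231 pairs of libraries the smallest mean chi-square per gene was 9.99, well above sampling noise.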

Additional observations from a re-analysis of the deposited data

Results flagged for a closer look

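Within the groups of a run, and over the 10 stimulated mice, 200 sets of values of the 40 members were examined for a mouse far from the others by Dixon's test. It marked 10, and chance marks about 1 set in 20, which is 10 here. In run 1, stimulated mouse 3 was lowest for Epha3 (3.00 CPM, the next 5.15) and Ephb1 (39.8, the next 45.9), stimulated mouse 2 was highest for Efna3 (36.5, the next 32.9), and stimulated mouse 4 was highest for Slit3 (25.5, the next 18.9). Among the controls of run 1, control 4 was highest for Slit3 (21.8 CPM, the next 18.6) and control 1 was lowest for Unc5d (7.30, the next 10.3). Among the controls of run 2, control 9 was highest for Efna2 (10.2 CPM, the next 8.28) and Efna5 (10.8, the next 9.33), and control 8 was highest for Rgmb (113, the next 96.3). Stimulated mouse 7 was highest of run 2 for Robo1 (50.8 CPM, the next 38.1).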

How the results depend on the processing

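No member had an adjusted p under 0.05 for group under any of 34 alternatives, nor for the difference of the group effect between runs under any of 28, and Efna3, Ephb6, Epha7, Neo1 and Robo3 kept their direction under all 34, although their log2 fold changes came as near to 0 as 0.11, 0.05, -0.15, -0.04 and -0.06 (Neo1 with group as the only term, Efna3, Ephb6 and Robo3 with the oligodendrocyte covariate). The number of members at an unadjusted p under 0.05 for group, 5, was 1 with group as the only term, 1 in library numbers 1 to 11, 2 without controls 9 and 11, and 3 with the replicate block and run, which drops controls 11 and 12 and under which Neo1 (-0.09, unadjusted p = 0.220, edgeR) and Efna3 (0.13, unadjusted p = 0.0705) were lost. Leaving out each mouse in turn it ranged from 3 to 6, while the number over all 17524 genes ranged from 1561 to 2488. The number of members was 3 without control 3, control 12 or stimulated mouse 5, beside 1938, 1850 and 1584 of all genes. Over all genes it was 1355 without controls 9 and 11 and 1980 with the replicate block and run. Same-numbered mice correlated at 0.308 on average (8 of 10 pairs above 0.1, lowest -0.367) and at 0.0511 within runs, so the numbers were not taken as pairs. For the difference of the group effect between runs the number, 2, was 5 with limma voom, 5 with no count minimum and 1 without controls 9 and 11, and 2 to 6 leaving out each mouse. The share of all genes was 8.01% in the main fit and is not given for these alternatives. Their counts of members therefore have no background to be read against. An unadjusted p under 0.05 was lost for Neo1 under 3, Robo3 under 4, Efna3 under 5, Epha7 under 13 and Ephb6 under 14 of 34 alternatives. The run difference passed for 35 to 37 members. Over all genes, 2016 were at an unadjusted p under 0.05, against 632 with group alone, 974 in run 1, 3501 with a surrogate variable and 3687 with no count minimum, and adjusted calls, 0, were 68 with the surrogate variable, 33 by the DESeq2 Wald test, 1 by limma and 1 without controls 9 and 11 (also without control 9 alone). The causes of these changes were not tested. Depth limits Epha1, Epha2 and Efna4.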
